A study of Homo sapiens with 6 samples.

Results

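DHRS2 and 7 of its relatives among the short-chain dehydrogenases/reductases (DHRS1, DHRS3, DHRS4, DHRS7, DHRS9, DHRS11 and DHRS13) were followed in RNA sequencing libraries of HCT116, a human cell line established from a colorectal cancer. The 8 genes were taken by symbol from a table of 60643 genes, each symbol having a single row. The family was chosen by the fall of DHRS2, which had the seventh most negative log2 change (rank 7 of 14475 tested genes) in the comparison described here, and the other 7 genes entered by their family name. The values of DHRS2 are therefore a description, given with no test. All cells carried a doxycycline-inducible short hairpin RNA, labelled shCAPG-2, against CAPG, an actin filament capping protein. The +Dox group (3 libraries, genotype label CAPG Knockdown) was induced for 3 days at 100 ng/µl, the unit being that of the labels, and the -Dox group (3 libraries) was not treated. The genotype label of the -Dox group is WT although its titles carry the same hairpin. Whether the line is a clone or a pool is not stated. No libraries given doxycycline without this hairpin were used here, so the drug and the hairpin cannot be told apart. With this hairpin alone, loss of CAPG and other effects of the hairpin cannot be told apart either. The labels do not tie replicates to separate cultures. The p-values below thus reflect the scatter among these 6 libraries alone, and that scatter may be technical.

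Short-chain dehydrogenases/reductases are enzymes with a shared nucleotide-binding fold that move hydride between NAD(H) or NADP(H) and carbonyl or hydroxyl groups of retinoids, steroids, sugars and foreign compounds. Several DHRS enzymes act in vitamin A metabolism, where reduction of retinal to retinol withholds the precursor of retinoic acid and oxidation of retinol supplies it. DHRS2, also called HEP27, is a dicarbonyl reductase found in mitochondria and the nucleus, and its processed form is known to bind MDM2, the ubiquitin ligase of p53. The series title names p53, apoptosis and ferroptosis as the setting of the study.

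The values were treated as FPKM (fragments per kilobase of transcript, scaled to library size). Depth, inferred from the steps between low values, was roughly 13400000 to 18700000 fragments per library. For a transcript of 1 kb, 3 fragments then amount to 0.160 to 0.224 FPKM, for counting error only. CAPG, the hairpin's target, averaged 8.73 ± 1.08 FPKM in +Dox cells and 57.2 ± 3.75 FPKM in -Dox cells (SD, n = 3 each; two-sided exact permutation p = 0.1, which is the smallest value possible with 3 libraries a group). Of 7 colon epithelial markers 6 reached 1 FPKM in at least 1 library, with summed levels of 1870 to 2200 FPKM in +Dox and 1660 to 1860 FPKM in -Dox libraries, while VIL1 was at no more than 0.133 FPKM. Of 6 fibroblast markers COL1A1 alone reached it, with list sums of 7.58 to 9.80 FPKM in +Dox and 7.97 to 11.3 FPKM in -Dox libraries. Of 6 leukocyte markers CD68 alone did, with sums of 2.59 to 2.77 FPKM in +Dox and 4.40 to 5.17 FPKM in -Dox libraries, and of 4 endothelial markers 0 did. In the limma test described below EPCAM was called higher with doxycycline (log2 0.34, adjusted p = 0.0401) and CD68 lower (log2 -0.72, adjusted p = 0.0167). The other tested markers were not called. The part of the markers in the results below was not tested.

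DHRS2 (ENSG00000100867, chromosome 14, 23630115 to 23645639, GRCh38) stood at 6.25, 5.96 and 7.43 FPKM in +Dox replicates 1, 2 and 3, against 19.9, 19.8 and 19.5 FPKM in -Dox replicates 1, 2 and 3. The highest +Dox library was thus far below the lowest -Dox library, and the -Dox libraries lay close together. The means were 6.55 ± 0.774 FPKM in +Dox and 19.7 ± 0.223 FPKM in -Dox cells (SD, n = 3 each), which left 33.2% of the -Dox level. On the log2(FPKM + 1) scale the difference was -1.46 (SE 0.10). In bulk RNA, fewer cells expressing a gene and less of its RNA per cell cannot be told apart. Little of the DHRS2 sequence is shared with other genes, since 0.114% of the 50-base words in its annotated transcripts occur in transcripts of another gene. No annotated gene overlaps its locus.

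**Figure D1:**
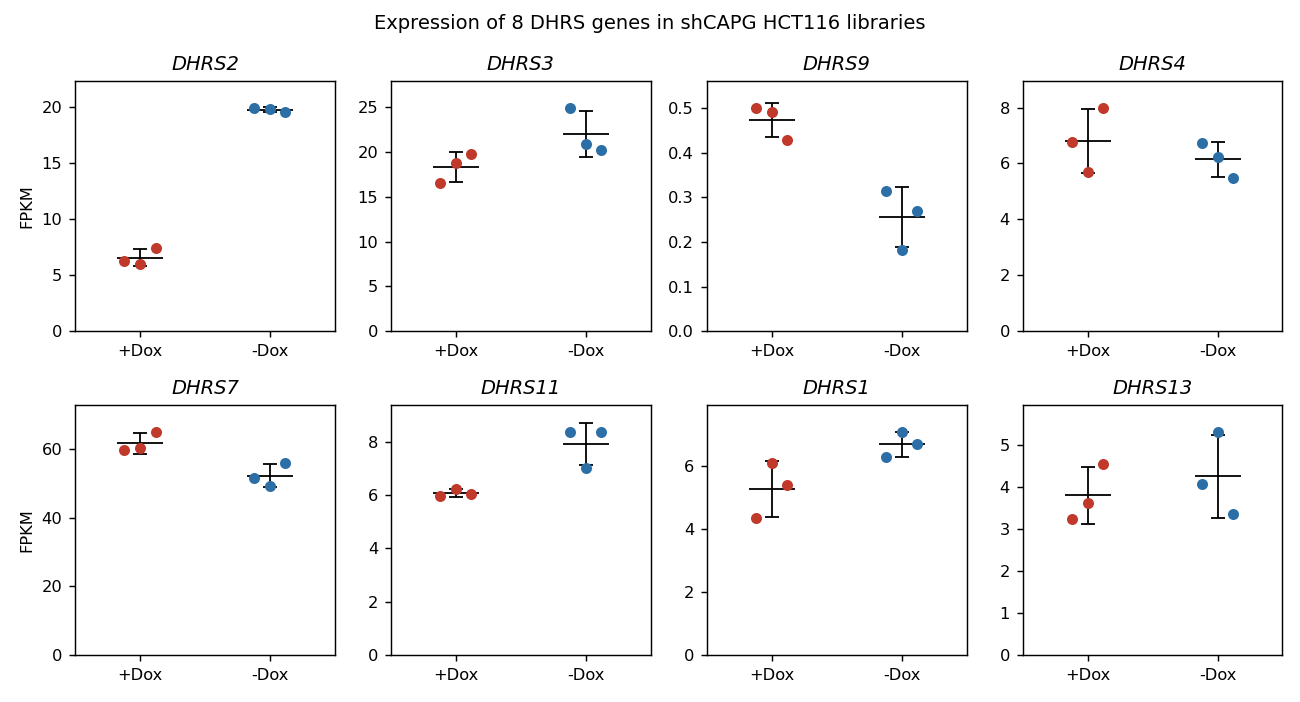
FPKM (vertical axes, each from 0) of the 8 DHRS genes in the 3 +Dox and 3 -Dox libraries, with 1 point per library and the mean and SD in black. DHRS2 is at 5.96 to 7.43 FPKM in +Dox and 19.5 to 19.9 FPKM in -Dox libraries, while the groups of the other genes lie closer together.

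The promoter of DHRS2 differs in base composition from those of most of its relatives, so 4 windows of 300 bases are shown, each running from 250 bases before to 50 bases after the annotated start. They come from RefSeq on GRCh38.p14, read on the gene's own strand, and the table held 7 of the 8 genes, with none for DHRS7. Where a gene had several windows, the one whose start lay nearest to the gene's annotated 5′ end was used. Capitals mark TATAAA, the TATA box core, and GGGCGG, the GC box core, searched on both strands. CCAAT was searched in the same way, and 0 of the 7 windows held it, against 34.6% of all windows. The windows are chr14:23629865-23630164 (plus strand) for DHRS2, chr2:169066827-169067126 (plus strand) for DHRS9, chr14:23953520-23953819 (plus strand) for DHRS4 and chr14:24299731-24300030 (minus strand) for DHRS1. DHRS9 is shown as the other window with TATAAA, and DHRS4 and DHRS1 as the relatives nearest to DHRS2 on chromosome 14.
DHRS2: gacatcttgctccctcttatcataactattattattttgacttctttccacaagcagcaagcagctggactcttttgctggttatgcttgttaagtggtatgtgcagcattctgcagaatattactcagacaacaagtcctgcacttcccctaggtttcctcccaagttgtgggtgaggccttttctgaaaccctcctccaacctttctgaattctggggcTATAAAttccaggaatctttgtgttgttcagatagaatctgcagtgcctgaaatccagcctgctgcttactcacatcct
DHRS9: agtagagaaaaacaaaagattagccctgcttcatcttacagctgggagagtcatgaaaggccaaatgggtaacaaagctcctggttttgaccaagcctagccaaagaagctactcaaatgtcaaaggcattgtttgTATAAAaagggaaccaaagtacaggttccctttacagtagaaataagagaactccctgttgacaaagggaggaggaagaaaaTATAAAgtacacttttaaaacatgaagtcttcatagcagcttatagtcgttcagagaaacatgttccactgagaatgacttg
DHRS4: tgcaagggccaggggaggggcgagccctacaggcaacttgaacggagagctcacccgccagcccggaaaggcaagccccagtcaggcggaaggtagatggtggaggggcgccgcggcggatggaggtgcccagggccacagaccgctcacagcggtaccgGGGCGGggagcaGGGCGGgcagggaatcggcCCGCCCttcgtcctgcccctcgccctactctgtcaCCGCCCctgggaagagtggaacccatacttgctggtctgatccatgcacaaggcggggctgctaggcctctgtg
DHRS1: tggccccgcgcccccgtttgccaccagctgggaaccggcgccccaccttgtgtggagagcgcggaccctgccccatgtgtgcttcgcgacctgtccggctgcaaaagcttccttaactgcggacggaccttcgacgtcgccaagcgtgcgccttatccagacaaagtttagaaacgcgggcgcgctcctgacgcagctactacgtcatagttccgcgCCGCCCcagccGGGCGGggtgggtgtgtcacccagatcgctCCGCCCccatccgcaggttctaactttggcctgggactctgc

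The DHRS2 window held TATAAA beginning 29 bases before the start, 0 GC boxes and 0 CpG sites, at 44% G and C. Of all 35116 windows in the table, 3.96% lacked CpG sites and 11.5% held TATAAA. DHRS9 held TATAAA 32 and 114 bases before the start used and 1 CpG site, at 39.3% G and C. This window, the nearest of 4 for DHRS9, begins at 169066827, inside the DHRS9 locus, which begins at 169064789. Its matches thus do not lie at the 5′ end of that locus. The other 5 windows lacked TATAAA. DHRS4 and DHRS11 held 4 GC boxes each, DHRS1 held 3, DHRS3 held 1 and DHRS13 held 0, where 45% of all windows held at least 1. In DHRS11 a pair of these overlap by 1 base. G and C made up 64.7% to 74.3% of these 5 windows, against a median of 58.7% over all windows. A match to these letters is a description of the sequence, and its use was not measured here.

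None of the relatives passed the test. Of the 7 genes other than DHRS2, 6 had at least 1 FPKM in at least 3 libraries and were tested with limma over all 14475 such genes, and 0 were called higher and 0 lower at an adjusted p under 0.05 (Benjamini-Hochberg). Over all tested genes 8.46% were called, 4.77% lower and 3.69% higher. Before adjustment, limma gave p under 0.05 for 3 of the 6 with +Dox lower and for 1 with +Dox higher, against 14.3% and 13.6% of all tested genes. The groups did not overlap in 3 of the 6 with +Dox lower and in 1 with +Dox higher, against 17.5% and 17% of all tested genes. Nothing is read from these shares, since the family was put forward from the same contrast. The median log2 change of the 6 was -0.19, with a range of -0.33 to 0.24, against a median of -0.003 over all tested genes.

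**Figure D2:**
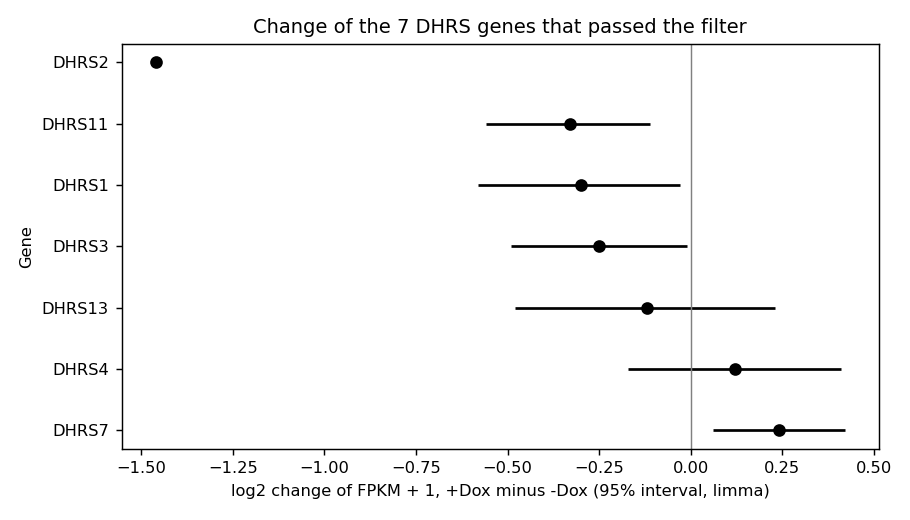
Log2 change of FPKM + 1 (horizontal axis, +Dox minus -Dox) of the 7 DHRS genes that were tested or described with the limma fit. Points are estimates and bars are 95% intervals that are not adjusted for the number of genes, with none for DHRS2, which was chosen by this contrast. DHRS2 lies at -1.46 and the other 6 genes between -0.33 and 0.24.

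Among the retinoid enzymes, DHRS3 (ENSG00000162496, chromosome 1, 12567910 to 12618210), which reduces retinal to retinol and is itself induced by retinoic acid, had 16.5, 18.7 and 19.8 FPKM in +Dox libraries, against 24.9, 20.9 and 20.2 FPKM in -Dox libraries. All +Dox libraries lay below all -Dox libraries, but the nearest values of the groups were 19.8 and 20.2 FPKM. Its log2 difference of -0.25 (SE 0.11, 95% interval -0.49 to -0.01) did not pass the limma test (adjusted p = 0.163). DHRS9 (ENSG00000073737, chromosome 2, 169064789 to 169096167), which oxidises retinol and hydroxysteroids, had 0.501, 0.491 and 0.429 FPKM in +Dox libraries, against 0.315, 0.182 and 0.269 FPKM in -Dox libraries. It lay below 1 FPKM in all 6 libraries and was not tested for that reason. All +Dox libraries lay above all -Dox libraries, at low values throughout. In a 1 kb transcript 3 fragments give 0.160 to 0.224 FPKM. The +Dox values lay above this range, and the lowest -Dox value lay in it. Without the filter on low values its log2 difference was 0.23 (SE 0.08), and limma did not call it (adjusted p = 0.272).

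DHRS4 (ENSG00000157326, chromosome 14, 23953734 to 23969279), a peroxisomal reductase of retinal and other carbonyl compounds, had 6.76, 5.68 and 7.99 FPKM in +Dox libraries, against 6.73, 6.23 and 5.49 FPKM in -Dox libraries. The groups overlapped, and the difference was smaller than the spread (log2 0.12, SE 0.13, 95% interval -0.17 to 0.41, limma adjusted p = 0.582). This gene is uncertain, because 48% of its 50-base transcript words occur in other genes, and 35.4% of all its words occur in the tandem copy DHRS4L2. With DHRS4, DHRS4L1 and DHRS4L2 summed, the log2 difference was 0.15 (limma adjusted p = 0.554). The antisense gene DHRS4-AS1, which overlaps DHRS4 by 15694 bases, had 6.91, 7.16 and 7.26 FPKM in +Dox libraries, against 9.01, 8.96 and 9.34 FPKM in -Dox libraries. Its groups did not overlap, and it missed the threshold (log2 -0.32, SE 0.09, limma adjusted p = 0.0546). The sources used here do not say whether counting used strand. Without strand, reads from the 10.9% of DHRS4 words that DHRS4-AS1 holds cannot be told apart between them.

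DHRS7 (ENSG00000100612, chromosome 14, 60144119 to 60169856), an endoplasmic reticulum enzyme that acts on steroids and retinoids, was the most abundant of the 8. It had 59.8, 60.3 and 65.2 FPKM in +Dox libraries, against 51.6, 49.3 and 55.9 FPKM in -Dox libraries. All +Dox libraries were above all -Dox libraries. The log2 difference of 0.24 (SE 0.08, 95% interval 0.06 to 0.42) did not pass the limma test (adjusted p = 0.0959). PCNX4 lies on the opposite strand across 25014 bases of the DHRS7 locus and shares 24.3% of the DHRS7 words. PCNX4 averaged 22 ± 1.99 FPKM in +Dox and 23.5 ± 2.08 FPKM in -Dox cells (SD, n = 3 each; limma adjusted p = 0.603).

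DHRS11 (ENSG00000278535, chromosome 17, 36591879 to 36600804), a reductase of ketosteroids, had 5.95, 6.23 and 6.05 FPKM in +Dox libraries, against 8.39, 7.03 and 8.37 FPKM in -Dox libraries. The +Dox libraries lay closely together and all below the -Dox libraries. Its log2 difference of -0.33 (SE 0.10, 95% interval -0.56 to -0.11) was the most negative among the tested relatives and missed the threshold (limma adjusted p = 0.0715). DHRS1 (ENSG00000157379, chromosome 14, 24290598 to 24299780), an endoplasmic reticulum member that reduces steroids and foreign carbonyl compounds in the test tube, had 4.33, 6.07 and 5.37 FPKM in +Dox libraries, against 6.26, 7.08 and 6.67 FPKM in -Dox libraries. The groups did not overlap, and limma did not call the gene (log2 -0.30, SE 0.12, adjusted p = 0.143). Without +Dox replicate 1, the lowest library, the log2 difference of DHRS1 was -0.19 (adjusted p = 0.374).

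DHRS13 (ENSG00000167536, chromosome 17, 28897781 to 28903079) had 3.24, 3.60 and 4.55 FPKM in +Dox libraries, against 4.07, 5.31 and 3.36 FPKM in -Dox libraries. The groups overlapped (log2 -0.12, SE 0.16, 95% interval -0.48 to 0.23, limma adjusted p = 0.658), and the sign turned to 0.02 without -Dox replicate 2. The antisense gene AC024267.6 holds 37.7% of the DHRS13 words, which makes this gene uncertain too.

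Because FPKM are scaled by length, levels can be set against each other between genes. In +Dox cells DHRS2 averaged 6.55 FPKM and had rank 4 of 8, its libraries overlapping those of DHRS4 (6.81 FPKM), DHRS11 (6.08 FPKM) and DHRS1 (5.25 FPKM). In -Dox cells it averaged 19.7 FPKM, at rank 3 after DHRS7 (52.3 FPKM) and DHRS3 (22 FPKM), and its libraries overlapped none of the other members. DHRS7 and DHRS3 led in both groups, and DHRS13 and DHRS9 came last in both. In +Dox libraries the neighbours from DHRS4 down to DHRS13 overlapped, and in -Dox libraries DHRS11 overlapped DHRS1 and DHRS1 overlapped DHRS4.

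The summed level of the 8 genes was 109 ± 6.98 FPKM in +Dox and 119 ± 3.24 FPKM in -Dox cells (SD, n = 3 each). Of this sum DHRS2 made up 5.99% ± 0.397 in +Dox and 16.6% ± 0.474 in -Dox cells. DHRS7 made up 56.7% ± 1.04 in +Dox and 43.8% ± 2.47 in -Dox cells. The fall of DHRS2, the chosen gene, by itself raises this share, because DHRS2 is part of the sum. The level of DHRS7 itself, 61.8 FPKM in +Dox and 52.3 FPKM in -Dox cells, enters the share as well. How much each contributed was not tested. Without DHRS2, the sum was 103 ± 6.29 FPKM in +Dox and 99.5 ± 3.22 FPKM in -Dox cells, a difference within the spread of the libraries (exact permutation p = 0.6, two-sided).

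**Figure D3:**
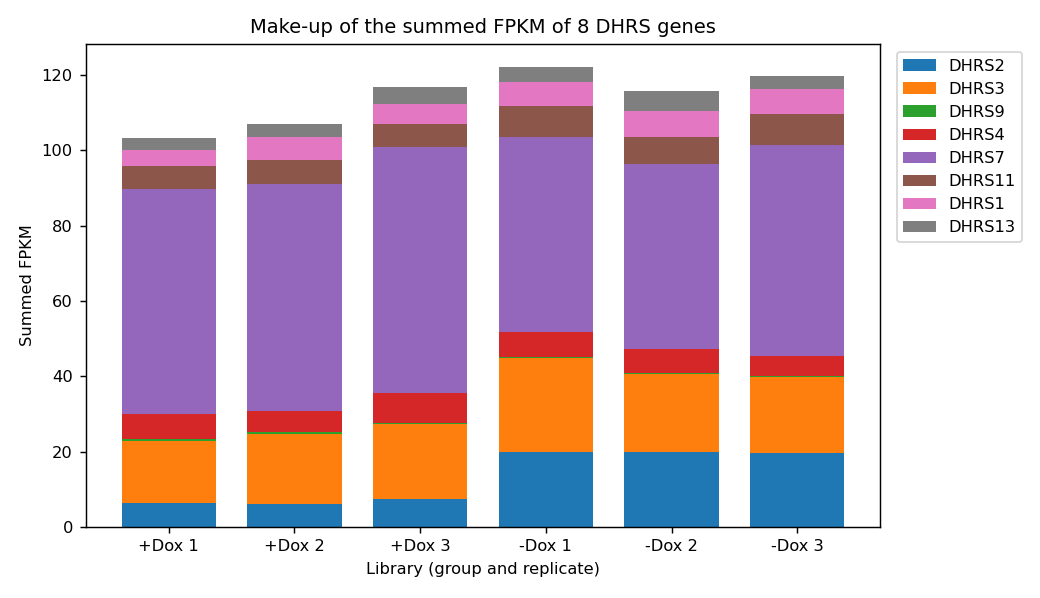
Summed FPKM of the 8 DHRS genes (vertical axis) in each +Dox and -Dox library, with 1 colour per gene. The DHRS2 segment takes 5.57% to 6.36% of the sum in +Dox libraries and 16.3% to 17.1% in -Dox libraries.

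The DHRS2 locus lies in a stretch of chromosome 14 that also holds DHRS4, 308.1 kb beyond its end, DHRS4L2 (324.2 kb) and DHRS1 (645.0 kb). Of the 20 other tested genes within 500 kb of DHRS2, limma called 1 higher and 0 lower, against 3.69% called higher and 4.77% called lower of all tested genes. Before adjustment p was under 0.05 for 4 with +Dox higher and 3 with +Dox lower, against 13.6% and 14.3% of all tested genes, and the groups did not overlap in 4 with +Dox higher and 4 with +Dox lower, against 17% and 17.5%. Their log2 differences ran from -0.37 to 0.33 with a median of -0.11. The gene called higher was NGDN, a regulator of ribosome biogenesis, 120.3 kb before DHRS2. It averaged 35.4 ± 2.76 FPKM in +Dox and 27.8 ± 0.689 FPKM in -Dox cells (SD, n = 3 each; log2 0.33, SE 0.08, limma adjusted p = 0.043), and its call was lost whichever single library was omitted (adjusted p 0.0618 to 0.165), with libraries scaled to equal totals (0.0569), without the filter (0.119) and without trend or robust moderation (0.0662). The nearest tested genes, AP1G2 and AL135999.1 at 62.0 kb, had log2 differences of 0.04 and -0.21, neither of them called.

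**Figure D4:**
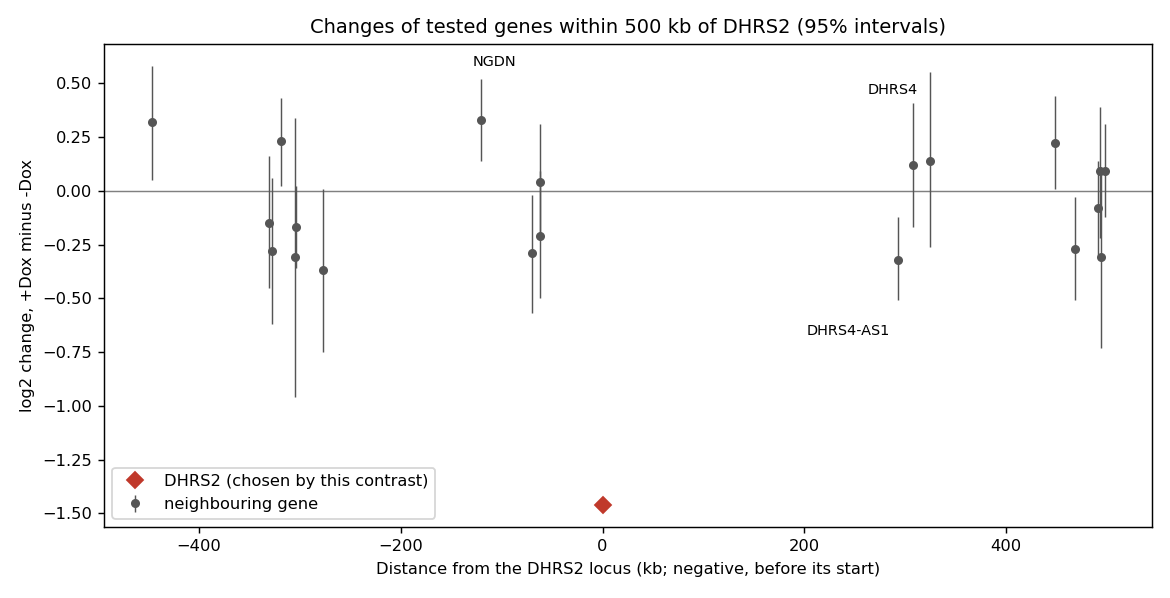
Log2 change of FPKM + 1 (vertical axis, +Dox minus -Dox) of the 20 tested genes within 500 kb of DHRS2, with 95% intervals from limma, by distance from its locus in kb (horizontal axis). DHRS2, chosen by this contrast, has no interval. DHRS2 lies at -1.46, and its neighbours lie between -0.37 and 0.33.

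Other genes of the superfamily and of the retinoid pathway were read from 5 lists. Over all tested genes limma called 3.69% higher and 4.77% lower, and before adjustment 13.6% and 14.3% had a limma p under 0.05. Of 6 other DHRS genes 4 were tested and 0 called by limma. DHRSX had 1.28, 2.99 and 2.83 FPKM in +Dox libraries, against 1.38, 1.58 and 1.03 FPKM in -Dox libraries, and 1 of the +Dox libraries lay among the -Dox ones (log2 0.49, SE 0.21, limma adjusted p = 0.164). Without that library, +Dox replicate 1, the limma adjusted p was 0.0302. With any other single library omitted it was 0.225 to 0.37. DHRSX lies in the pseudoautosomal region and has 2 rows, of which the one with the higher mean, on chromosome Y, is given. With the rows summed the log2 difference was 0.60 (adjusted p = 0.159). DHRS4L2 averaged 6.23 ± 1.86 FPKM in +Dox and 5.45 ± 0.991 FPKM in -Dox cells (SD, n = 3 each; limma adjusted p = 0.651), with the sign turned to -0.05 without +Dox replicate 3. Before adjustment, limma p was under 0.05 for 1 gene of this list, with +Dox higher, and the list's median log2 difference was 0.09. Of 9 retinol and retinal dehydrogenases 6 were tested and 0 called by limma. Before adjustment 0 had a p under 0.05, and the median was 0.08. In this list RDH11, which reduces retinal, averaged 52.5 ± 1.72 FPKM in +Dox and 47.7 ± 0.451 FPKM in -Dox cells (limma adjusted p = 0.252), and RDH14 averaged 11.9 ± 1.69 FPKM in +Dox and 13.8 ± 1.27 FPKM in -Dox cells (limma adjusted p = 0.307; SD, n = 3 each).

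Of 19 hydroxysteroid dehydrogenases 11 were tested, with a median of -0.11. In this list limma called 1 lower and 0 higher, against 4.77% and 3.69% of all tested genes. Before adjustment p was under 0.05 for 3 with +Dox higher and 3 with +Dox lower, against 13.6% and 14.3% of all tested genes. HSD17B8, a mitochondrial enzyme of fatty acid and steroid metabolism, had 2.06, 1.67 and 2.37 FPKM in +Dox libraries, against 4.11, 3.48 and 3.53 FPKM in -Dox libraries, without overlap (log2 -0.64, SE 0.13, limma adjusted p = 0.0203). Its call was lost without +Dox replicate 2 (0.0625), -Dox replicate 1 (0.0621) or -Dox replicate 2 (0.0655), and without the filter on low values (0.0816). The table held 27 genes listed under carbonyl, sugar, lipid and pteridine metabolism, of which 25 were tested. In this list limma called 1 lower and 0 higher, with a median of -0.04. Before adjustment p was under 0.05 for 0 with +Dox higher and 2 with +Dox lower, against the same 13.6% and 14.3%. KDSR, which makes dihydrosphingosine for sphingolipid synthesis, had 16.7, 16.9 and 16.2 FPKM in +Dox libraries, against 20.4, 20.1 and 22.4 FPKM in -Dox libraries (log2 -0.32, SE 0.08, limma adjusted p = 0.0458). All +Dox libraries were below all -Dox libraries, and the call was lost whichever single library was omitted (0.0714 to 0.129), and also without the filter (0.112), with equal medians (0.0628) and without trend or robust moderation (0.0613).

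Among 19 genes of retinoid binding, oxidation and signalling 10 were tested and limma called 2 lower and 0 higher, with a median of 0.00. Before adjustment p was under 0.05 for 1 with +Dox higher and 2 with +Dox lower. RARG, the gamma retinoic acid receptor, had 9.60, 8.44 and 10.5 FPKM in +Dox libraries, against 18.1, 17.9 and 14.9 FPKM in -Dox libraries. The groups did not overlap, and its log2 difference was -0.77 (SE 0.11, limma adjusted p = 0.00628). ALDH1A3, which oxidises retinal to retinoic acid, had 33.9, 34.5 and 33.8 FPKM in +Dox libraries, against 52.6, 48.1 and 46.7 FPKM in -Dox libraries. The groups did not overlap here either (log2 -0.52, SE 0.08, limma adjusted p = 0.00752). Both calls held whichever single library was omitted, the highest adjusted p being 0.0305 for RARG and 0.039 for ALDH1A3, and RARG lost its call without the filter on low values (0.0561). Over the 5 lists together 0 of 56 tested genes were called higher and 4 lower by limma, with a median of -0.02, against 3.69% and 4.77% of all tested genes. Before adjustment p was under 0.05 for 5 of the 56 with +Dox higher and 7 with +Dox lower, against 13.6% and 14.3% of all tested genes.

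**Figure D5:**
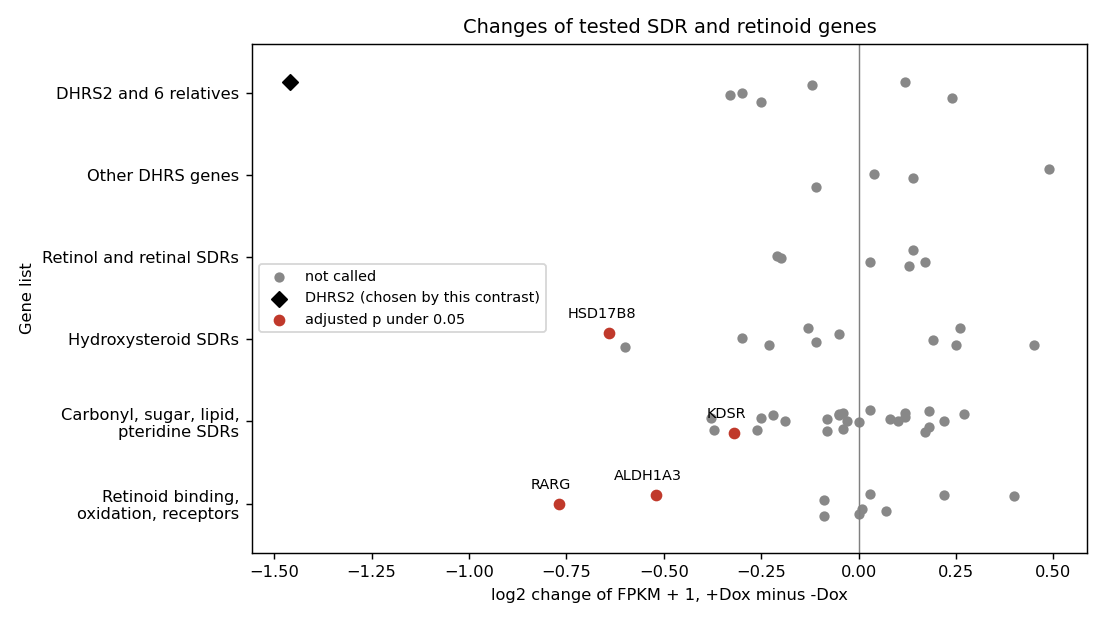
Log2 change of FPKM + 1 (horizontal axis, +Dox minus -Dox) of the tested genes of the DHRS set and of the 5 lists (rows), with 1 point per gene, red where the limma adjusted p was under 0.05. HSD17B8, KDSR, RARG and ALDH1A3 are the genes called, at -0.64, -0.32, -0.77 and -0.52, and DHRS2, shown as a diamond with no test, lies at -1.46. Heights within a row are spread for legibility.

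By Pearson's r of log2(FPKM + 1) over the 6 libraries, the named genes most like DHRS2 were TULP3 (r = 0.9997), PAQR8, a membrane progestin receptor (0.9989), CAPG itself (0.9985), the glutamate transporter SLC1A1 (0.9979) and the carbonic anhydrase CA12 (0.9976). These r values are a description, and the 6 points fall into the 2 groups. PAQR8 had 1.19, 1.15 and 1.40 FPKM in +Dox libraries, against 3.44, 3.49 and 3.59 FPKM in -Dox libraries. The groups did not overlap, which the choice by likeness to DHRS2 largely sets in advance. TULP3 stood at 11.7 ± 0.380 FPKM in +Dox and 16.8 ± 0.0764 FPKM in -Dox cells (SD, n = 3 each). CA12 had 0.707, 0.743 and 0.802 FPKM in +Dox libraries, against 1.76, 1.77 and 1.75 FPKM in -Dox libraries. It thus passed the filter of 1 FPKM through the -Dox libraries only.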

How the data were processed

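In the table deposited by the authors each gene has a single value per library, which was treated as FPKM. The values are not whole, and their sums differ between libraries (521832 to 586911). Bowtie, BWA, STAR, Cufflinks, RSEM and kallisto and the build hg19 are named without roles or versions, per the submitters' processing notes. Of the 60643 identifiers 39331 were found in GENCODE 29 on GRCh38, and 39321 of these had the same locus there. Starts were counted from 0 in the deposited table and are given counted from 1. FPKM divides out library size, so an abundant class that grows lowers the values of other genes.

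The 14475 genes that reached 1 FPKM in 3 or more libraries entered a limma fit of log2(FPKM + 1) (version 3.58.1, R 4.3.3; trend and robust options, group as the only term, two-sided, Benjamini-Hochberg over all tested genes, threshold 0.05). The log2 scale with a pseudocount of 1 understates changes of low genes. The fit was tested on simulated data. Depth was estimated from 3644 single-exon genes longer than 1000 bases, under the assumption of whole fragments, and is rough. Shared words were counted over GENCODE 29 transcripts on both strands. Named were the 8 genes, CAPG, up to 4 called genes of each list or 2 with the smallest p where none was called, and the 5 genes most like DHRS2. DHRS4-AS1, PCNX4, AC024267.6, AP1G2, AL135999.1, HSD17B10 and the markers were named after their values were seen. The members and lists were chosen with earlier results of these data known. GFUS is present under its older symbol TSTA3. Some single-gene results of the alternatives are not reported here. Alternatives changed the pseudocount, filter, scaling, moderation, replicate block, libraries used and the handling of copies.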

Additional observations from a re-analysis of the deposited data

How the results depend on the processing

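DHRS2 was lower in +Dox cells under each of the 14 alternatives, which adds no support because the gene was chosen by this fall. Summing gene copies or repeated symbols did not touch the DHRS2 row. Its log2 difference was -1.58 with a pseudocount of 0.1 and between -1.55 and -1.41 when a library was left out. The relatives called higher and those called lower numbered 0 under each alternative. CAPG was called lower by limma in the main fit (log2 -2.59, adjusted p = 7.24e-06) and kept this call under each alternative. Replicate numbers did not pair the libraries (correlations of -0.04, 0.01 and -0.02 for the same-numbered deviations), and with the replicate block 2 list genes were called lower and 69 genes of the table higher and 142 lower, with 0 of the genes near DHRS2 called. The block ended the calls of HSD17B8 (0.0648), KDSR (0.114) and NGDN (0.09). Without the filter 1 list gene was called lower, and 53 genes of the table were higher and 100 lower. Without trend or robust moderation 354 were higher. Genes near DHRS2 called higher numbered 0 with the block, without the filter, without moderation and with equal totals. With equal totals 1 of them was called lower (DHRS4-AS1, adjusted p = 0.0427). Scaling to equal medians called HSD17B10 higher (0.0403), and 1 list gene was called higher under either scaling. Leaving out a library gave 0 to 1 list genes higher and 2 to 3 lower, 0 genes near DHRS2 higher, and 85 to 403 genes of the table higher and 157 to 597 lower, the lowest without -Dox replicate 2. Omitting any library but +Dox replicate 3 moved both table-wide counts by over 1.5 times. With a library left out, DHRS13 ran from -0.25 to 0.02 (without -Dox replicate 2) and DHRS4L2 from -0.05 (without +Dox replicate 3) to 0.30. The causes were not tested. With 3 libraries a group, differences as small as those of the relatives are near what the test can resolve. DHRS9 lay below the filter of 1 FPKM in all libraries.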
